A study of Mus musculus with 6 samples.

Results

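Merged peaks of H3K56ac, an acetyl mark on lysine 56 in the core of histone H3, were examined at 7 germline genes and 3 *Dppa* genes in V6.5 mouse embryonic stem cells (mESCs). The germline genes were *Dazl*, *Ddx4*, *Mael*, *Sycp1*, *Sycp3*, *Stra8* and *Hormad1*, chosen as genes held silent in stem cells, and *Dppa2*, *Dppa4* and *Dppa5a* were chosen as genes active there. A peak was counted when it had a base in the gene body or within 10 kb on either side, with gene models of GENCODE M21 on mm10. The 10 genes were drawn from 21938 protein-coding genes, and 10 of the 11106 peaks met this rule. The study grew undifferentiated V6.5 mESCs on feeder cells and used lentivirus to express a scrambled shRNA (Scramble) or an shRNA targeting *Sirt6* (*Sirt6* KD), the gene of a histone deacetylase that acts on this mark. Each group had 2 H3K56ac ChIP-seq libraries and 1 input DNA library, 6 libraries in all. The processed file held the positions of 1 merged peak set without the library, height or read count of a peak. Scramble and *Sirt6* KD cells therefore could not be compared at any gene, there was no replicate error or depth for any value, and no test was run. RNA was not measured in this file, so whether a gene was silent or active could not be checked against its expression. All 5 stem cell markers examined (*Pou5f1*, *Nanog*, *Sox2*, *Zfp42* and *Esrrb*) and 0 of 8 fibroblast markers of feeder cells carried a peak that reached to 1 kb or less from a transcription start site (TSS). Of all protein-coding genes 35.7% carried one.

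Germline genes are kept off outside germ cells by several layers of repression. Their CpG-rich promoters can carry DNA methylation, and a variant Polycomb complex, PRC1.6, is recruited to them by the E2F6 and MGA/MAX DNA-binding subunits. DPPA2 and DPPA4 are related SAP-domain proteins that bind chromatin and are encoded by adjacent genes, and DPPA5A is a KH-domain protein of early embryos and stem cells. H3K56ac is found at promoters and enhancers of transcribed genes as well as on newly assembled nucleosomes.

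Sequences are shown for promoters of germline genes and for the centres of peaks, which are unlike regions. The first 4 are promoters without a peak, from 250 bases before to 50 after the RefSeq gene start on GRCm38.p6, written 5′ to 3′ on the strand of the gene, with CpG dinucleotides in capitals. They include the promoter with the most CpGs among the germline genes (*Ddx4*, 38), that of the gene farthest from a peak (*Dazl*, 28), one with both motifs described below (*Sycp3*, 15) and the one with the fewest CpGs (*Stra8*, 10), whose RefSeq start lies downstream of the 5′ end in GENCODE. All promoters of that table had a median of 7 CpGs in 300 bases.
Dazl promoter, chr17:50293571-50293870, minus strand: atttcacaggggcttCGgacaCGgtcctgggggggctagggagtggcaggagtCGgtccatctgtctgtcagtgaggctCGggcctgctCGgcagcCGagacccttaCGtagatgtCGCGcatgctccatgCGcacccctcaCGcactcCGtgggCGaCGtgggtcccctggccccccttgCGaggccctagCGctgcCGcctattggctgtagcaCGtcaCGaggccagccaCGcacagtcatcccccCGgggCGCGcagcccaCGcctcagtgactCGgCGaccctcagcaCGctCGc
Ddx4 promoter, chr13:112652261-112652560, minus strand: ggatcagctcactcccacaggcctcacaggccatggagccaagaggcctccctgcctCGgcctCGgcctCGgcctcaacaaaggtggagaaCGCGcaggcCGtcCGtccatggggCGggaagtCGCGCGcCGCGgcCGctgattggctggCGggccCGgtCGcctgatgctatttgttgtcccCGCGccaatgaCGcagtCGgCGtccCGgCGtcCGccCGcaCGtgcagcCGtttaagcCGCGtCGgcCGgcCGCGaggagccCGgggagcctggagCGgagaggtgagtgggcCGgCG
Sycp3 promoter, chr10:88459337-88459636, plus strand: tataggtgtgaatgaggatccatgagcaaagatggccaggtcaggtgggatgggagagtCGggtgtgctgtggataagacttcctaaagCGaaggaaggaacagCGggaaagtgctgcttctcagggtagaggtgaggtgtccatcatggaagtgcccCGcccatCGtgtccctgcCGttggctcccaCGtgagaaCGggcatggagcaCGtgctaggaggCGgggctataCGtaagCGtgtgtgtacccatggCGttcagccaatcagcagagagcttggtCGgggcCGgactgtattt
Stra8 promoter, chr6:34920698-34920997, plus strand: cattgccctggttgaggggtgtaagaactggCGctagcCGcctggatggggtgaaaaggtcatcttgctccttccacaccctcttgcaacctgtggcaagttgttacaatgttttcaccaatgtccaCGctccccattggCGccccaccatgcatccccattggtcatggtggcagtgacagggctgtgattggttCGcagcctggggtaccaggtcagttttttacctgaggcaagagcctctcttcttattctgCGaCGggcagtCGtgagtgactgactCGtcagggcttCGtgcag

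The next 4 are the central 300 bases of peaks on mm10, on the plus strand and again with CpGs in capitals. They come from the 3 peaks nearest to a *Dppa* start and from the only peak inside a germline gene. The central bases held 3 CpGs for *Dppa2*, 3 for *Dppa4*, 2 for *Dppa5a* and 3 for *Hormad1*. These are peak centres and not *Dppa* promoters, so their CpG counts cannot be set against those of the germline promoters.
Dppa2 intron peak, chr16:48311063-48311362: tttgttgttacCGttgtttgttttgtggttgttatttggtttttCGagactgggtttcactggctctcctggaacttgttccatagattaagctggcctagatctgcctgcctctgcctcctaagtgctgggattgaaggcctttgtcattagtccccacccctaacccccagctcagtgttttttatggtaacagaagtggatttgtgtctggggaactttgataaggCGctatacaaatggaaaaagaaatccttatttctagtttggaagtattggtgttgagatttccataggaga
Dppa4 peak, chr16:48284138-48284437: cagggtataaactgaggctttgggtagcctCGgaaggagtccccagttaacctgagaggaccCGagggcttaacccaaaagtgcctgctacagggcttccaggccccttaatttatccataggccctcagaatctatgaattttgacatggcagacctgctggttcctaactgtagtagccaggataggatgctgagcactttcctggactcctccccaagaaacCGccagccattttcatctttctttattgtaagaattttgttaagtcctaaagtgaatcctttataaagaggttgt
Dppa5a upstream peak, chr9:78371556-78371855: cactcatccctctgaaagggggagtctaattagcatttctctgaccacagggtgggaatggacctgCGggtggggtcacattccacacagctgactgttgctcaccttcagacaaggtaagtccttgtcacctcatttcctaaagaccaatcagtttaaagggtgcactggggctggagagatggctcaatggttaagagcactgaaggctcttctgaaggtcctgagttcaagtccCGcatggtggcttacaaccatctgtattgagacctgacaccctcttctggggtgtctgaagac
Hormad1 intron peak, chr3:95569104-95569403: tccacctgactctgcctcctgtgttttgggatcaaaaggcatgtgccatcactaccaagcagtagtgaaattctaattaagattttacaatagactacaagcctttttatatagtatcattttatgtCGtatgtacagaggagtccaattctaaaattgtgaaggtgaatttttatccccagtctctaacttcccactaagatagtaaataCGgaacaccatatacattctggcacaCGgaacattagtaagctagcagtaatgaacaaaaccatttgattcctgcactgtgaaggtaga

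None of the 7 germline genes had a peak that came to within 1 kb of any of its TSS, while all 3 *Dppa* genes did. Over all protein-coding genes 35.7% had such a peak. With the wider window, 3 of 7 germline genes and 3 of 3 *Dppa* genes had a peak, beside 46.7% of all genes. With 5 kb on either side, 1 germline gene, *Hormad1*, still had peaks in its window. The windows of the germline genes summed to 424.379 kb and held 4 peaks with 2866 bases inside them, or 0.675% of their length. The *Dppa* windows summed to 87.447 kb and held 6 peaks with 11656 bases, or 13.3%. Over the windows of all genes this share was 1.46%. Of the *Dppa* bases, 9722 were at *Dppa5a*, which had 46.0% of its window covered. *Dppa4* and *Dppa2* had 3.11% and 2.75% covered, less than *Hormad1* with 3.82%. The other germline genes had 1.11% or less. The windows of the neighbours *Dppa4* and *Dppa2* overlapped, and no peak was counted in both. From the nearest TSS of a gene to the nearest peak edge the median was 43911 bp for the germline genes (range 8348 to 1319507) and 199 bp for the *Dppa* genes (28 to 244), beside 22481.5 bp for all genes (quartiles 0 and 139052.25). The distances of the germline and *Dppa* genes did not overlap. Of all protein-coding genes, 31.0% lay within 244 bp of a peak and 41.4% within 8348 bp. The 244 bp ran from an internal start of *Dppa2*, and the 5′ end of that gene lay 6813 bp from a peak.

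**Figure D1:**
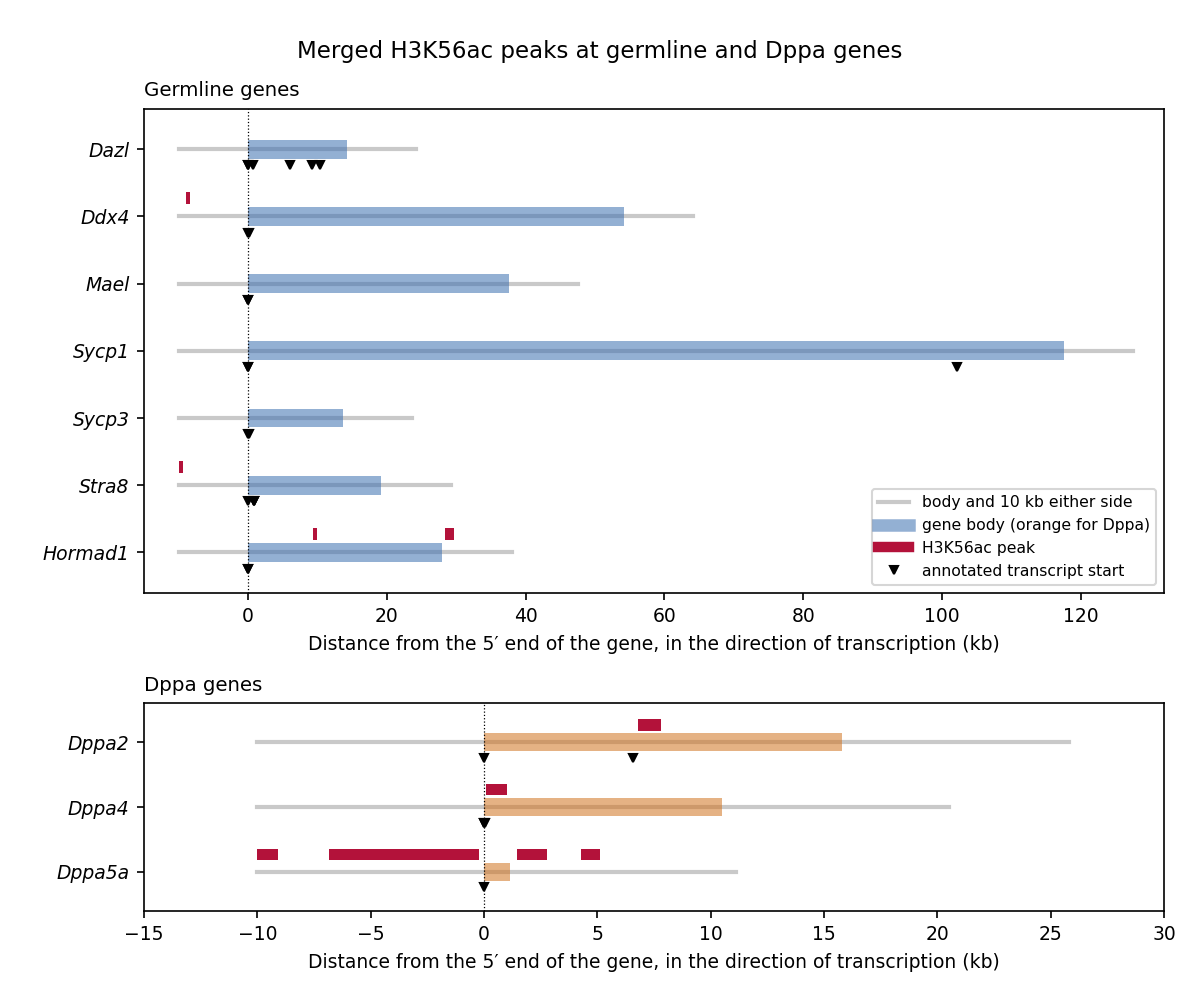
Position of merged H3K56ac peaks around the 7 germline genes (upper panel, blue bodies) and the 3 Dppa genes (lower panel, orange bodies), in kb from the 5′ end of each gene in the direction of transcription. Grey lines are the body with 10 kb on either side, triangles are annotated transcript starts and red boxes are peaks, clipped to the window and drawn no narrower than a visible tick. The 4 peaks at germline genes lie away from every germline start, and the 6 at Dppa genes include 3 within 1 kb of a start. The panels differ in scale.

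Genes of the early germ cell programme were without a peak at their starts. *Dazl*, an RNA-binding protein needed for germ cell development (chr17:50279395-50293636, minus strand), had no peak in its window or within 100 kb. Its nearest peak (chr17:48963312-48963816, 505 bp) was 1319507 bp from the closest of its 6 annotated starts, and 96.9% of all protein-coding genes lay as near to a peak or nearer. *Ddx4*, the mouse Vasa RNA helicase (chr13:112598333-112652475, minus strand), had 1 peak in its window (chr13:112660823-112661420, 598 bp), 8348 bp upstream of its start. That peak lay nearer to *Slc38a9*, an amino acid transporter gene on the opposite strand, with its midpoint in an exon of that gene and 340 bp from its TSS. *Stra8*, the retinoic acid-induced gene of meiotic entry (chr6:34920163-34939344, plus strand), also had 1 peak in its window (chr6:34910069-34910596, 528 bp), 9567 bp upstream. This peak covered a TSS of *Wdr91*, a divergent neighbour, and 434 of its bases were inside the window.

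Genes of the synaptonemal complex and of meiotic chromosome axes had a single peak inside their bodies. *Sycp1*, the transverse filament protein (chr3:102818499-102936100, minus strand), had no peak in its 117602 bp body or within 10 kb of it, and its nearest peak was 120264 bp upstream of the closest start. *Sycp3*, a component of the axial element (chr10:88459569-88473236, plus strand), lies within the body of *Chpt1*, a phospholipid synthesis gene on the opposite strand. Its nearest peak, 43911 bp away, was a 185 bp peak at the TSS of *Chpt1* (chr10:88503575-88503759). *Hormad1*, an axis protein with a HORMA domain (chr3:95559677-95587671, plus strand), had 2 peaks in its window. The first (chr3:95569022-95569486, 465 bp) lay in an intron of *Hormad1*, 9344 bp downstream of the nearest start, with 45.4% of its bases in annotated repeats. The second (chr3:95588046-95589414, 1369 bp) was beyond the 3′ end and covered the TSS of *Golph3l*. Outside these structures, *Mael*, a piRNA pathway protein (chr1:166201201-166238747, minus strand), had none in its window, and its nearest peak was 103439 bp away.

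Of the 4 peaks counted at germline genes, 3 were within 1 kb of the TSS of a neighbour. Of the 6 peaks at *Dppa* genes, 4 were within 1 kb of a protein-coding TSS, their own or that of a neighbour. The share over all peaks was not computed, so neither count can be read as a trait of the peaks at these genes. Of the 15 protein-coding genes next to or overlapping the 7 germline genes, 5 had a peak within 1 kb of a TSS, a share close to the 35.7% of all genes. These were *Slc38a9*, *Gpa33* (beside *Mael*, 2440 bp), *Chpt1*, *Wdr91* and *Golph3l*. The 10 without one were *Rftn1*, *Plcl2*, *Il31ra*, *Ildr2*, *Tspan2*, *Nr1h5*, *Gnptab*, *Mybpc1*, *Slc23a4* and *Ctss*. The 4 peaks were 465 to 1369 bp wide (median 563), beside a median of 913.5 bp for all peaks.

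*Dppa4* and *Dppa2* lie in tandem on the plus strand of chromosome 16 with 9670 bp between them, and the next protein-coding gene to the left, *Nectin3*, was 1785207 bp away. *Dppa4* (chr16:48283733-48294237) had 1 peak (chr16:48283815-48284762, 948 bp) that began 28 bp downstream of the nearest of its 3 annotated starts, and its midpoint was intronic. *Dppa2* (chr16:48303908-48319723) also had 1 peak (chr16:48310721-48311706, 986 bp). It lay in an intron 244 bp downstream of an internal annotated start at 48310477, and 6813 bp downstream of the 5′ end. At the 5′ end of *Dppa2* itself there was no peak, so its count at a TSS rested on the internal start. Both peaks were close to the median width of all peaks, and they covered 3.11% and 2.75% of the windows of *Dppa4* and *Dppa2*.

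*Dppa5a* (chr9:78367052-78368177, minus strand) differed from the other members in the number and width of its peaks. Its window held 4 peaks, which 1.72% of all protein-coding genes reached or passed, and 46.0% of the window was covered, a share that 99.98% of genes did not exceed. The widest peak (chr9:78368376-78375037) spanned 6662 bp, wider than or as wide as 99.6% of all peaks, and ended 199 bp upstream of the TSS. Downstream of the gene lay peaks of 1323 bp (chr9:78365417-78366739) and 843 bp (chr9:78363043-78363885). The fourth (chr9:78377284-78379076, 1793 bp) covered the TSS of *Ooep*, an oocyte-expressed gene, and had 894 bases inside the window. No peak base fell within the 1126 bp body of *Dppa5a*. The reference sequence there is partly repeated elsewhere: of the 75-base stretches, the read length in the study's methods, 33.4% in the body occurred once in the assembly, and 35.1% in the 1636 bp between the flanking peaks. The study kept only reads with 1 reportable location, and it also lists longer reads for these libraries, for which uniqueness was not computed. Within 1 kb of the TSS 70.1% were unique. The share was lower downstream of the start than upstream, and no stretch was unique from about 0.5 to 1.5 kb downstream. Between 88.8% and 100% of the stretches within the 4 peaks were unique. The part of repeated sequence in the gap between peaks was not tested. The pseudogenes *Dppa5b* and *Dppa5c* on the same chromosome had their nearest peaks 49909 and 76357 bp away. Uniqueness of the sequence at these pseudogenes was not computed, so whether reads could be placed there is not known.

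**Figure D2:**
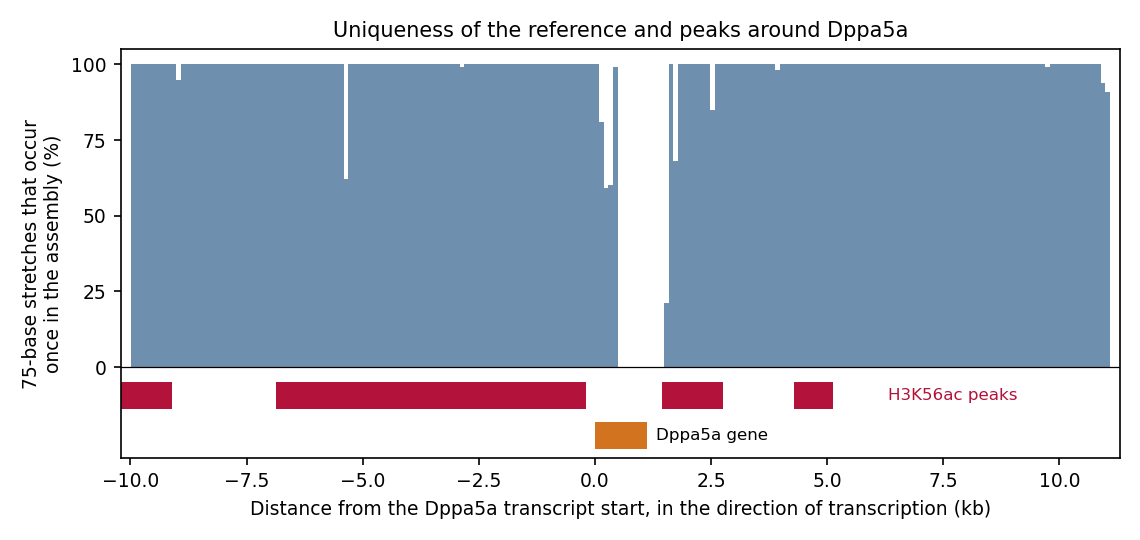
Share of 75-base reference stretches that occur once in the assembly (bars, bins of 100 stretches, percent) against distance from the Dppa5a start in the direction of transcription (kb), with merged peaks in red and the gene in orange below. The share falls downstream of the start, none is unique from about 0.5 to 1.5 kb downstream, and most of that stretch lies in the gap between the 2 flanking peaks, with its far end inside the downstream peak.

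Every 75-base stretch within 1 kb of the 5′ end occurred once in the assembly for all 7 germline genes, and over whole windows the share was 79.7% for *Sycp1*, where 59.8% of bases were in repeats, and 95.5% to 98.7% for the others.

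A gene was called CpG-rich when the observed over expected CpG ratio within 500 bp of its 5′ end exceeded 0.6. Of all CpG-rich genes 60.4% had a peak within 1 kb of a TSS, against 14.7% of the CpG-poor ones. Among the germline genes 6 of 7 were CpG-rich, and none of those 6 had such a peak. *Ddx4* had the highest ratio (0.742, 73 CpGs within 500 bp) and *Stra8* the lowest (0.256, 14 CpGs), and no annotated start of *Stra8* was CpG-rich, so that its lack of a peak was shared with most CpG-poor genes. All 3 *Dppa* genes were CpG-poor, with ratios of 0.239 for *Dppa2*, 0.387 for *Dppa4* and 0.441 for *Dppa5a*, and all 3 had a peak. Of the 8 fibroblast markers, none with a peak at a TSS, 7 were CpG-poor. So were 4 of the 5 stem cell markers, all with such a peak. The peaks at *Dppa* genes had a median GC content of 45.6% and a median CpG ratio of 0.304. Both were below the medians of all peaks, 51.4% and 0.510. A median of 33.8% of the bases of the *Dppa* peaks lay in repeats, beside 9.84% for all peaks. Of these 6 peaks, 4 were in the window of *Dppa5a*, so the *Dppa* medians mostly describe 1 locus. The 4 peaks at germline genes also lay below all peaks in median GC content (47.6%) and CpG ratio (0.386), with a median of 2.74% in repeats.

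**Figure D3:**
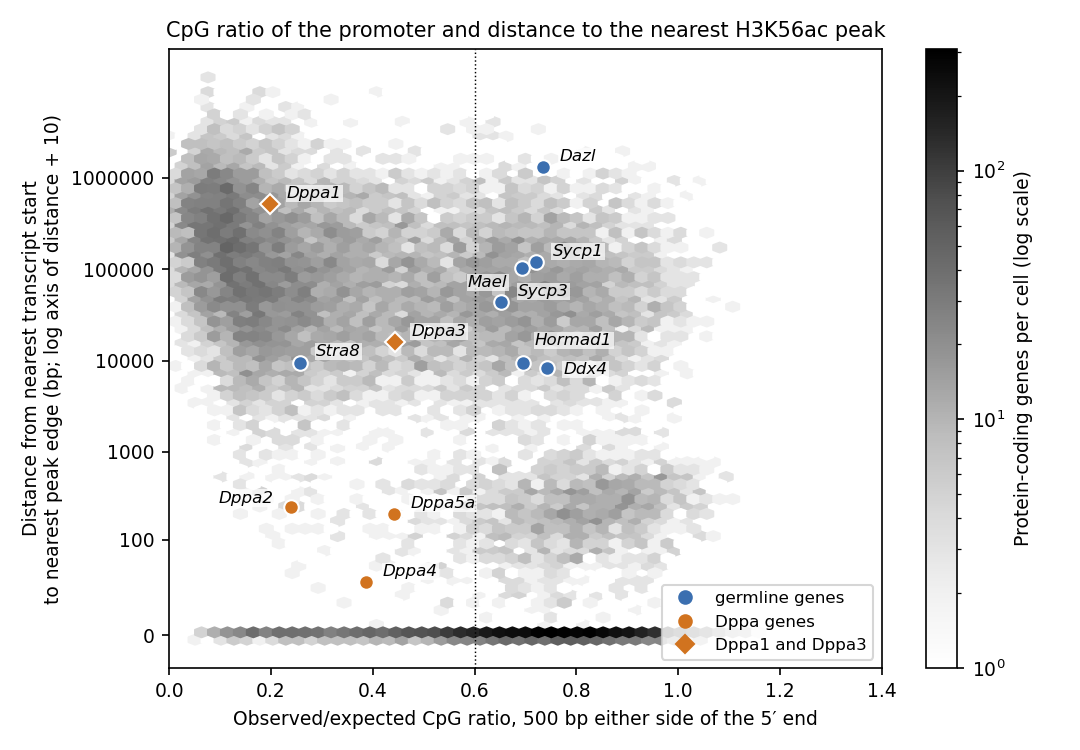
Distance from the nearest annotated start to the nearest H3K56ac peak edge (bp, log axis of the distance plus 10) against the CpG ratio within 500 bp of the 5′ end, for all protein-coding genes (grey cells, darker for more genes) and for the named genes (blue germline, orange Dppa). The dotted line marks the ratio of 0.6. Germline genes other than Stra8 lie right of the line and at 8348 bp or more, and Dppa2, Dppa4 and Dppa5a lie left of it within 244 bp. For Dppa2 the ratio is that of the 5′ end, 6813 bp from the peak. Its distance is from an internal start, whose own ratio is 0.327.

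Both DNA-binding parts of PRC1.6 have short recognition sequences, which were searched on both strands of the 300 base RefSeq promoters. The E-box CACGTG, read by MGA/MAX, occurred in 5 of 7 germline promoters (*Ddx4*, *Mael*, *Sycp1*, *Sycp3* and *Hormad1*) and in 7.15% of all 32851 promoters, or 10.9% of the 14281 with at least 10 CpGs. The E2F sequence TTCCCGC occurred in 3 of 7 (*Ddx4*, *Sycp3* and *Hormad1*), beside 4.60% and 9.20%. In *Sycp3* the 2 E-boxes began at bases 187 and 208 of the sequence printed above and the E2F sequence at base 104. The octamer ATTTGCAT, read by POU5F1, occurred in 0 of 7, beside 1.74% of all promoters. In the central 300 bases of peaks the E-box, E2F sequence and octamer occurred in 6.69%, 5.42% and 1.08% of all peaks and in none of the 10 peaks at these genes. The promoter table had entries for all 7 germline genes, and *Dppa2*, *Dppa4* and *Dppa5a* were not matched in it.

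Other genes of the same pathways were counted in the same way, by peaks that reached a TSS or came as close as 1 kb. Of 20 further meiosis genes 2 had one, the recombinase gene *Dmc1* (1065 bp) and the MutS homologue gene *Msh5* (783 bp). Of 18 further piRNA pathway genes 1 had one, *Piwil2* (709 bp), which encodes a PIWI protein. Of 11 germ cell regulators 2 had one, the receptor gene *Kit* (722 bp) and *Prdm1* (454 bp), a repressor of the somatic programme in primordial germ cells. Together these gave 5 of 49 (10.2%), beside 35.7% of all genes, and 4 of 23 among CpG-rich genes (17.4%), beside 60.4%. Their median distance to a peak was 24851 bp, close to the 22481.5 bp of all genes, beside 43911 bp for the germline members. In the body or within 10 kb, 8 of the 20 meiosis genes had a peak. So did 6 of the 18 piRNA pathway genes and 6 of the 11 regulators, beside 46.7% of all genes. Of 20 genes for repressors of germline genes, 14 had a peak at a TSS (70%). Of the 20, 16 were CpG-rich and 11 of those had one, near the 60.4% of all CpG-rich genes. The widest were at *Uhrf1*, which recruits the maintenance methyltransferase (2506 bp), *Max* (1933 bp), *Cbx1* (1898 bp) and *Atf7ip* (1880 bp). The 6 without one were *Pcgf6*, *E2f6*, *Cbx3*, *Setdb1* and the methyltransferase genes *Dnmt3a* and *Dnmt3b*.

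**Figure D4:**
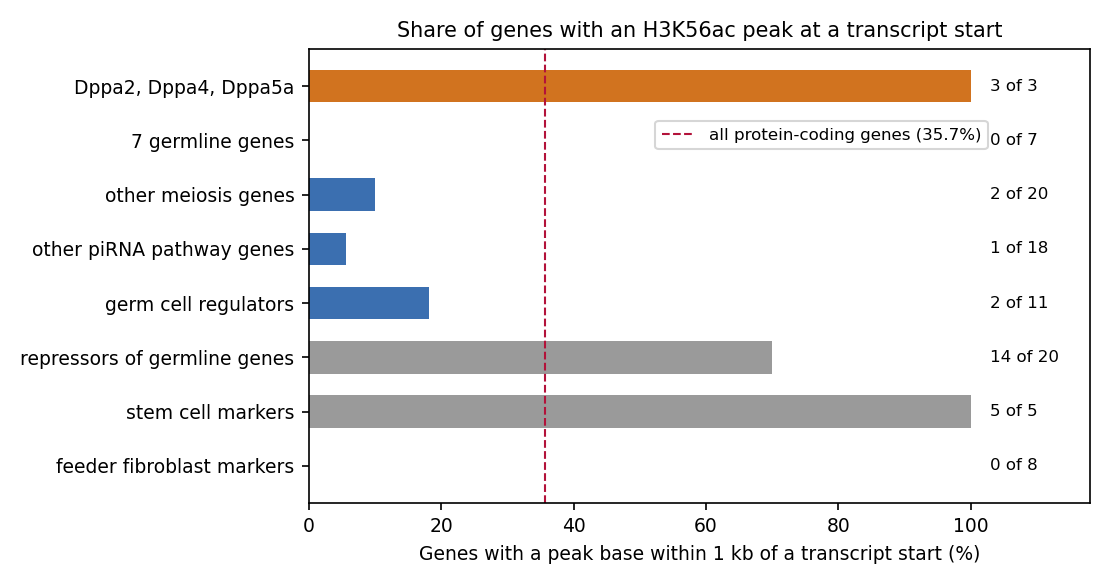
Share of genes with an H3K56ac peak base within 1 kb of a transcript start (percent) for the Dppa genes, the 7 germline genes, the further germline lists, repressors of germline genes and cell type markers, with counts at the right. The dashed line is the 35.7% of all protein-coding genes, and the 4 germline lists lie below it with 0 of 7, 2 of 20, 1 of 18 and 2 of 11.

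The name *Dppa* alone did not mark a gene with a peak. *Dppa1* had no peak in its window and lay 513082 bp from the nearest. *Dppa3*, known as Stella, a maternal factor that protects DNA methylation in the early embryo, had none in its window either, and its nearest peak (chr6:122606291-122610367, 4077 bp) was 16043 bp upstream, with 6 peaks within 100 kb.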

How the data were processed

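H3K56ac ChIP-seq was made from V6.5 mESCs with Scramble or *Sirt6* shRNA, in 2 ChIP and 1 input libraries per group, grouped by sample title. The authors trimmed reads with Trim Galore, aligned them to mm10 with bowtie, kept reads with 1 reportable location, discarded duplicates (Picard), and merged the MACS2 peaks of the libraries after a blacklist filter. The deposited file gave start and end positions of these merged peaks, and its score column was constant and held no measurement. It holds no read counts, and the depths the study lists for each library are not used here, so nothing takes depth into account.

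Genes and TSS, the starts of all transcripts, came from GENCODE M21 on GRCm38, the assembly behind mm10. Positions are printed counted from 1. Distances ran from a TSS to the nearest peak edge. CpG ratios covered 500 bp before and after the 5′ end, with CpG-rich meaning above 0.6. Promoters of 300 bases came from RefSeq, and other sequences from the mm10 reference. Uniqueness was the share of 75-base stretches, the read length in the methods, with 1 exact occurrence on either strand, without mismatches.

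The genes, lists and distances were chosen with earlier results of these data known, so no test was run and values are descriptions beside those of all genes. All 10 members are described, with their neighbours and the genes nearest to their peaks. From each list, genes with a peak at a TSS are named when 6 or fewer, otherwise the 4 with the widest, and those without one when 6 or fewer. The interval functions were tested on simulated data. Python 3.11.15, numpy 2.4.6, pandas 2.3.3 and matplotlib 3.10.9 were used. Alternatives changed the window, the TSS set, the use of midpoints and the peaks counted.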

Additional observations from a re-analysis of the deposited data

How the results depend on the processing

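None of the 7 germline genes had a peak at 1 kb or less from a TSS, and this count stayed 0 in every alternative. Those outcomes were fixed in advance and do not test the result. With 500 bp in place of 1 kb, peak midpoints, the 5′ end alone or wide peaks alone, a count of 0 can only stay 0. The same holds for TSS of the GENCODE basic set, chosen after seeing the data. With 3 kb the outcome was settled by the smallest germline distance, 8348 bp at *Ddx4*. For the *Dppa* genes the count fell from 3 to 2 with midpoints or the 5′ end alone. Of 56 alternatives over 10 results 13 moved a value beyond 1.5-fold. With 5 kb on either side, germline genes with a peak in the window numbered 1, their peaks 2 and their peak bases 1834. In the gene body alone these were 1, 1 and 465, and the *Dppa* genes had 2 peaks with 1934 bases. With peaks wider than the median alone, the germline genes had 1 gene, 1 peak and 1369 bases, and their median distance rose to 147196 bp. To peak midpoints the median distance of the *Dppa* genes was 736 bp. No paired analysis was possible because a merged peak cannot be traced to its library, and no library could be left out for the same reason. Depth limits which peaks could be called. The file holds no depth, and the read totals and peak numbers that the study lists for each library are not used here.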
